A study of Mus musculus with 12 samples.

Results

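The genes described here are the cyclins and cyclin-dependent kinases (CDKs) of the mouse oocyte other than *Cdk1* and the B-type cyclins. They were taken by symbol, as every gene of the count table named *Ccn* followed by letters and an optional number, or *Cdk* followed by a number, without *Cdk1*, *Ccnb1*, *Ccnb2* and *Ccnb3*. Of 56691 endogenous genes, 47 matched and 43 remained, made up of 25 *Ccn* and 18 *Cdk* symbols. One of them, *Ccndbp1*, fits the spelling but encodes a cyclin D-binding protein and is no cyclin. RNA was sequenced from oocytes at the germinal vesicle (GV) stage, after germinal vesicle breakdown (GVBD) and at metaphase II (MII), in wild-type (WT) and *Alkbh5* knockout (KO) mice, with 2 libraries for each of the 6 groups. ALKBH5 removes the N6-methyladenosine mark from RNA. The KO is a whole-body deletion of an exon holding the start codon, made by CRISPR-Cas9, so it is not limited to the oocyte. The females were 3 weeks old and primed with gonadotropin, and fully grown oocytes were frozen in pools after 0, 4 and 16 h of culture for the GV, GVBD and MII groups. The stage names of the later groups follow culture time. Most KO oocytes were described as failing to break down the germinal vesicle or extrude a polar body, and whether KO oocytes were selected by stage is not stated.

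Most CDKs are inactive until a cyclin binds them, and many also need phosphorylation of an activating loop by the CDK-activating kinase, which contains CDK7 and cyclin H. One branch of the family drives the cell cycle: D-type cyclins with CDK4 and CDK6 act in G1, E-type and A-type cyclins with CDK2 act around S phase. A second branch regulates RNA polymerase II, through CDK9, CDK12 and CDK13 during elongation and CDK8 and CDK19 in the Mediator complex. Fully grown oocytes are transcriptionally silent and carry a store of maternal mRNA, much of which is removed between GV and MII.

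Libraries held 28557742 to 40247810 counts, of which 221927 to 838409 came from the ERCC spike-in RNA added in equal amount to each tube. Levels below are counts scaled to equal ERCC counts, so they follow RNA per tube, and a change in the number of oocytes in a tube cannot be told apart from one in RNA per oocyte. *Alkbh5* was at 5355 to 10181 counts in the WT libraries and 54 to 143 in the KO libraries. Summed oocyte markers (8 genes) lay between 2.19e+05 and 7.27e+05, and cumulus and granulosa markers (10 genes) between 804 and 3465. Every KO library (1887 to 3465) lay above every WT library (804 to 1811) in the cumulus and granulosa sum. The part of this difference in values higher in KO was not tested. The labels do not say whether the 2 libraries of a group came from separate animals, so adjusted p-values do not measure a spread between animals. The edgeR test shares its estimate of spread across genes. Its p-values and errors therefore need not follow the spread of a gene's own 2 libraries.

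The members took up 0.191% to 0.314% of the endogenous counts. Scaled per kilobase of annotated exon, so that genes can be compared, *Ccndbp1* stood first in WT GV oocytes at 6836 and 5686 in the 2 libraries. *Cdk5*, the kinase known from neurons, followed at 4105 and 3169, and *Cdk7* at 2634 and 2366. These ranges did not overlap, so the first 3 places were separated beyond the spread of the libraries. *Ccne2* came next at 1385 and 1833, above *Cdk11b* (1237 and 1058), *Cdk20* (1249.5 and 971) and *Ccnk* (1348 and 694), which overlapped one another. *Ccno* ranked below these by its mean, at 1634 and 1.1. *Ccna2*, the mitotic and S-phase cyclin A, stood at 384 and 510 per kilobase, while its germline paralogue *Ccna1* never exceeded 3 raw counts in any library. The kinase partners of the cell-cycle cyclins were low: *Cdk2* had 14.9 and 26.1 per kilobase, *Cdk4* 17.9 and 107, and *Cdk6* 59.6 and 63.3. *Ccnjl* (at most 10 raw counts) and *Cdk18* (at most 22) were also near 0 throughout.

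**Figure D1:**
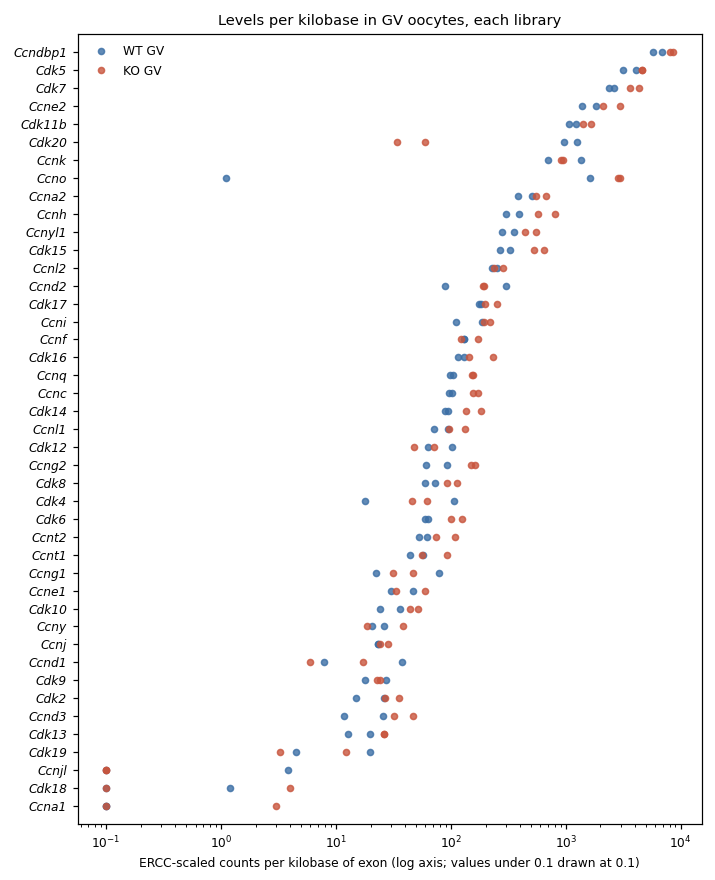
ERCC-scaled counts per kilobase of exon (log axis) of the 43 members in GV oocytes, with 1 point for each of the 2 WT (blue) and 2 KO (red) libraries, ordered by the WT mean. *Ccndbp1*, *Cdk5* and *Cdk7* lead, and the 2 WT libraries of *Ccno* lie at 1634 and 1.1.

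During maturation, mRNAs with a cytoplasmic polyadenylation element near the poly(A) signal can have their tails lengthened, so the 3′ ends of the members were read. In the last 100 bases of 1 coding transcript per gene (GENCODE M21, GRCm38), on the transcript's strand, TTTTAT or TTTTAAT was present in 10 of 43 members (23.3%) and in 17.8% of 19846 genes. The poly(A) signals AATAAA or ATTAAA, which can overlap those elements, were present in 32 members (74.4%) and in 78.3% of genes. Stretches of 30 bases from 4 members that hold both kinds of motif, in capitals, are shown 5′ to 3′. Together they span the highest value and one of the lowest in MII against GV. *Ccne1* also holds both in such a stretch, overlapping each other, and is not shown. In *Ccnl1* and *Ccnyl1* TTTTAT or TTTTAAT lies after the poly(A) signal. Whether these motifs act as elements was not tested.

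Ccndbp1 (chr2:121016846-121016875, plus strand): TTTTATtaagaTTTTAATgatctcAATAAA
Ccnl1 (chr3:65946154-65946183, minus strand): aaggaAATAAAatacaaatcttgtTTTTAT
Ccnyl1 (chr1:64725610-64725639, plus strand): atATTAAAagctAATAAAttctaTTTTAAT
Cdk19 (chr10:40483774-40483803, plus strand): catttaTTTTATattcttggttgaAATAAA

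In WT MII against GV oocytes, the log2 fold changes of these genes were 0.64 for *Ccndbp1*, 0.29 for *Ccnl1*, −0.42 for *Ccnyl1* and −2.69 for *Cdk19*. The median was −0.84 over the 10 tested members with TTTTAT or TTTTAAT and −0.85 over the 30 without them.

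Between GV and MII in WT oocytes, 12 of the 40 members tested fell and none rose, with changes called at an adjusted p under 0.05 and at least 2-fold by edgeR's quasi-likelihood test (Benjamini-Hochberg over all genes). Over all 18816 genes tested the same rule called 30.9%, with 5747 of these 5821 genes lower. Without WT GV replicate 2 or WT MII replicate 2 the count of members was 4, without WT GV replicate 1 it was 8 (*Ccno* then higher) and without WT MII replicate 1 it was 9, and *Ccnh* and *Cdk20* were called lower in all 4 of these fits. The median member changed by −0.85 on the log2 scale and the median gene by −1.06. Members called lower were *Cdk20*, *Ccnd2*, *Ccnh*, *Cdk19*, *Cdk4*, *Cdk2*, *Cdk10*, *Ccnd1*, *Ccno*, *Ccnc*, *Cdk7* and *Cdk8*. In KO oocytes 2 of 40 were called, *Ccnd2* and *Ccnh*, both lower, against 3.28% of 18777 genes. Without KO MII replicate 1 the count was 24 of 41 members, all lower, when 11075 of 20437 genes were called, and without either KO GV library it was 0. The KO medians were −0.67 over the members and −1.17 over all genes. All 12 members called in WT also had a log2 fold change below 0 in KO. No member's GV to MII change differed between the genotypes in the test of that difference, which called 0% of 20807 genes by edgeR. Unadjusted p-values under 0.05 were held by 1 member and 1197 genes. DESeq2 called 1 member there, *Cdk20*.

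These values depend on the scale. With TMM scaling, which sets the bulk of endogenous genes equal, the median gene moved from −1.06 to −0.14 in WT and from −1.17 to −0.14 in KO. On that scale 8 WT members were called: *Ccnd2*, *Ccnh* and *Cdk20* lower, and *Ccndbp1* (1.54, adjusted p = 0.00611), *Ccnl1* (1.16), *Cdk11b* (1.1), *Ccnt2* (1.08) and *Ccna2* (1.01) higher. The fall of *Ccnd2* and *Ccnh* was called on both scales in both genotypes.

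**Figure D2:**
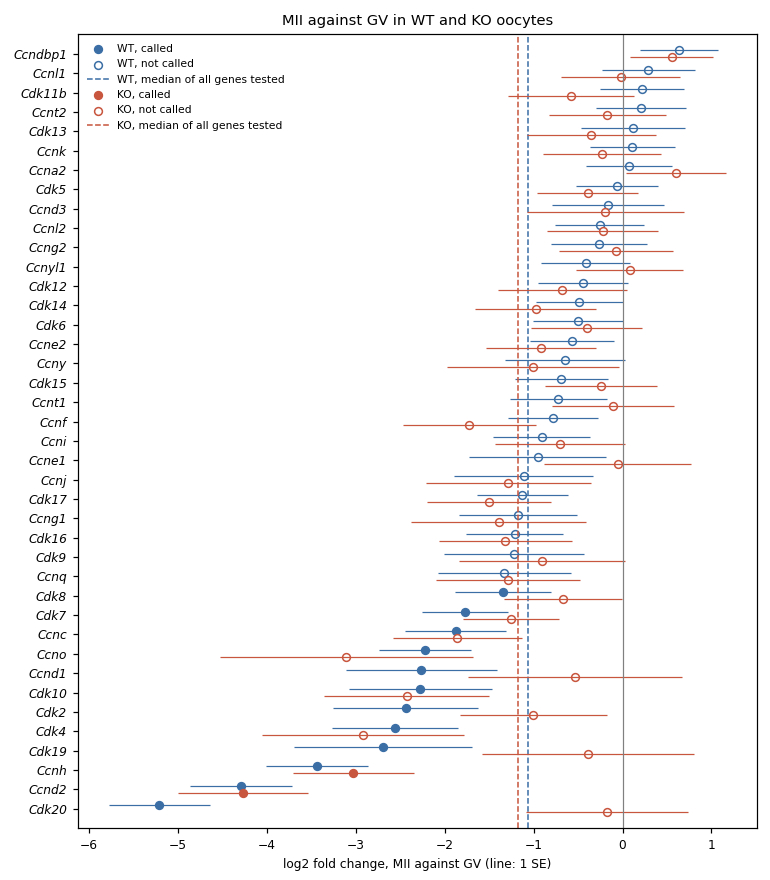
Log2 fold change of MII against GV (ERCC scale, line 1 SE) for the 40 members tested, in WT (blue) and KO (red), with filled points called and dashed lines at the median of all genes tested (−1.06 in WT, −1.17 in KO). *Ccnd2* and *Ccnh* are filled in both genotypes, and *Cdk20* lies at −5.21 in WT and −0.18 in KO.

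From GV to GVBD in WT oocytes no member of 41 was called by edgeR and none by DESeq2, although 1 had an unadjusted p under 0.05, and 0.0511% of 19566 genes were called. In KO oocytes 2 of 40 fell, *Ccno* and *Ccnd2*, against 0.22% of 19064 genes. The genotype difference in this change was called for no member, with 2 at an unadjusted p under 0.05, and for 0.00936% of 21371 genes by edgeR, and DESeq2 called *Ccno*.

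Between genotypes, calls were few. At GV, 1 of 40 members was called, *Cdk20*, lower in KO, against 0.0977% of 19452 genes. At GVBD it was 1 of 41, *Ccno*, lower in KO, against 2.54% of 19462 genes. At MII no member of 40 was called by edgeR or DESeq2, with none at an unadjusted p under 0.05 by edgeR and 2 by DESeq2, against 0.803% of 17566 genes called. With all stages in a model that also has a term for stage, *Cdk15* was the 1 of 41 called, higher in KO, against 1.26% of 22004 genes, and 15 members had an unadjusted p under 0.05, all higher in KO, as had 4146 genes in either direction (18.8%). The value was above 0 for 66% of all genes. The members' medians were 0.46 at GV, 0.57 at GVBD, 0.49 at MII and 0.41 over all stages, where the medians of all genes were 0.36, 0.23, 0.30 and 0.29. With TMM scaling those of all genes were close to 0 and the members' were 0.12, 0.33, 0.15 and 0.14.

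Many members had both KO libraries above both WT libraries. This held for 26 of 40 members at GV (42.2% of all genes), 15 of 41 at GVBD (30.3%) and 12 of 40 at MII (22.1%). Both KO libraries lay below both WT libraries for 1 member at GV (9.69% of genes), 6 at GVBD (17.9%) and none at MII (10.3%). With TMM scaling KO lay above WT for 14 members at GV (21.9% of genes), 13 at GVBD (25.3%) and 14 at MII (30.0%). On that scale KO lay below WT for 6 members at GV (24.5%), 9 at GVBD (27.0%) and 8 at MII (23.9%). *Ccna2*, *Ccnyl1*, *Cdk2*, *Cdk6*, *Cdk7* and *Cdk15* were above WT without overlap at every stage, 6 of 41 members, as were 5.39% of all genes. No member was below WT at every stage, against 1.5% of all genes. With TMM scaling the count above WT at every stage was also 6 (4.8% of all genes), and *Ccnyl1*, *Cdk6*, *Cdk7* and *Cdk15* were in both sets.

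**Figure D3:**
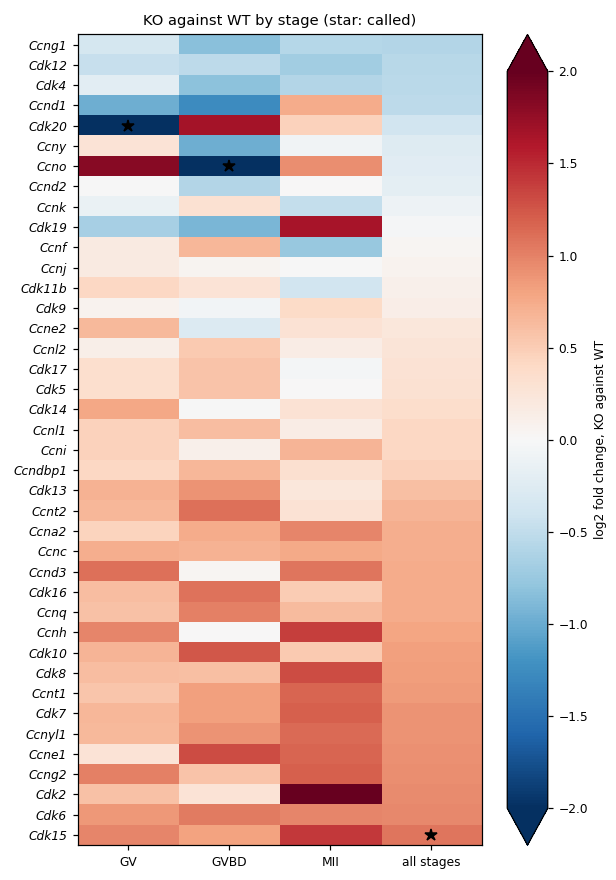
Log2 fold change of KO against WT (ERCC scale, colour, values beyond 2 drawn at the end of the scale) for members tested at all 3 stages, at each stage and in the fit over all stages, ordered by the latter, with stars on called values. The stars are *Cdk20* at GV, *Ccno* at GVBD and *Cdk15* over all stages.

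The CDK-activating kinase is represented by *Cdk7* and *Ccnh*. *Cdk7* (chr13:100702631-100730939, minus strand), the catalytic subunit, had 9762 and 8769 ERCC-scaled counts in the WT libraries at GV, 9788 and 8750 after GVBD, then 3268 and 2166 by MII. The KO libraries had 16071 and 13436, then 18956 and 13652, then 7576 and 4803. Each KO pair lay above its WT pair, and MII lay below GV and GVBD in both genotypes. *Cdk7* fell by 1.77 ± 0.48 (SE) on the log2 scale from GV to MII in WT (edgeR adjusted p = 0.00146), with −1.25 ± 0.54 in KO (adjusted p = 0.187). The KO against WT difference over all stages was 0.89 ± 0.22, which did not pass the threshold (edgeR adjusted p = 0.0663). With TMM scaling its GV to MII change in WT was −0.85, under the 2-fold minimum, and on the ERCC scale the WT call is lost without either WT GV library (adjusted p = 0.285 and 0.234).

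*Ccnh* (chr13:85189408-85223469, plus strand), which encodes the cyclin partner, was at 943 and 1218 in GV, 1548 and 1307 in GVBD, then 119 and 80.5 in MII oocytes of the WT. The KO libraries had 2483 and 1762, then 1381 and 1502, then 304 and 216. KO libraries were above WT at GV and MII and within the WT range at GVBD. Its log2 fold change between GV and MII was −3.44 ± 0.57 in WT (edgeR adjusted p = 3.67e-08) and −3.03 ± 0.69 in KO (edgeR adjusted p = 0.0464), so it fell further than the median gene in both genotypes. The KO call is lost without either KO GV library (adjusted p = 0.753 and 0.438). The KO against WT difference over all stages was 0.79 ± 0.27 (edgeR adjusted p = 0.148).

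Among the G1, S-phase and A-type genes (9 of 10 tested), 4 fell from GV to MII in WT (30.9% of all genes called) and 1 in KO (3.28%). *Ccnd2*, a D-type cyclin prominent in granulosa cells, had WT values of 834 and 2818, then 675 and 367, then 139 and 48.7 through the 3 stages. The KO values were 1832 and 1792, then 283 and 410, then 107 and 80.2. The order GV, GVBD, MII held without overlap in both genotypes. From GV to MII the log2 fold change was −4.29 ± 0.58 in WT (edgeR adjusted p = 4.5e-12) and −4.27 ± 0.73 in KO (edgeR adjusted p = 0.0314). From GV to GVBD the fall was called in KO, −2.38 ± 0.34 (edgeR adjusted p = 0.0467), with −1.81 ± 0.62 in WT (adjusted p = 0.561). The difference between these changes was −0.57 ± 0.76 and did not pass (edgeR adjusted p = 0.983). This KO call is lost with TMM scaling (edgeR adjusted p = 0.246), with the replicate block (adjusted p = 0.132) and with all 12 libraries in one model. With no filter the WT fall was called (edgeR adjusted p = 0.00772). Without either KO GV library both KO calls are lost (adjusted p from 0.276 to 0.487), and the WT call at MII is lost without WT MII replicate 2 (adjusted p = 0.0771). The cumulus and granulosa marker sum, which bears on a gene of those cells, was 1593 to 1811 in WT GV, 1446 to 1702 in WT GVBD and 804 to 1430 in WT MII. The KO sums were 2432 and 2254, then 3465 and 1923, then 1951 and 1887 through the stages, so at GVBD 1 library lay above and 1 below the KO GV values. Its part in the fall of *Ccnd2* was not tested.

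*Cdk4* had WT values of 58.1 and 348, then 306 and 241, then 41.5 and 27.5, and fell by 2.56 ± 0.71 from GV to MII (edgeR adjusted p = 0.00187). Without WT GV replicate 2 the value of *Cdk4* was −0.76 (adjusted p = 0.829), and the call is also lost without either WT MII library (adjusted p = 0.174 and 0.305). *Cdk2* had WT values of 92.5 and 162, then 177 and 163, then 23.1 and 23.6. In KO *Cdk2* was at 218 and 165, then 232 and 180, then 125 and 65.9, each pair above its WT pair. The change in WT was −2.44 ± 0.81 (edgeR adjusted p = 0.0116, lost without WT GV replicate 2 or either WT MII library, with adjusted p = 0.235, 0.0762 and 0.115), and KO had −1.0 ± 0.82 (adjusted p = 0.481). The difference between these changes was 1.43 ± 0.98 and did not pass (edgeR adjusted p = 1). *Ccnd1* was at 36.8 and 176 in WT GV and 23.9 and 20.2 in WT MII, a change of −2.26 ± 0.85 (edgeR adjusted p = 0.028). Without WT GV replicate 2 the value of *Ccnd1* was −0.74. *Cdk2*, *Cdk4* and *Ccnd1* are low and their values rest on small counts. About 19.7% of the *Cdk4* exon length overlaps *Tspan31* on the opposite strand and 23.4% of that of *Ccnd1* overlaps *LTO1*, likewise 17.4% of *Ccne2* with *Ints8* and 12.5% of *Ccna2* with *Exosc9*, and since strand use in counting is not stated, reads of such pairs may be mixed.

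*Ccna2* had WT values of 1567 and 2084, then 3048 and 1652, then 2290 and 1552, with no change called (0.07 ± 0.49 from GV to MII, edgeR adjusted p = 0.94). In KO it was at 2250 and 2726, then 4624 and 3228, then 3870 and 3687. The KO difference over all stages was 0.72 ± 0.23 (edgeR adjusted p = 0.128). *Cdk6*, a partner of D-type cyclins, was at 834 and 886, then 676 and 635, then 790 and 427 in WT, and at 1398 and 1754, then 1340 and 1348, then 1461 and 923 in KO. On the ERCC scale the 6 KO libraries all lay above the 6 WT libraries. With TMM scaling KO GV replicate 1 (807) and KO GVBD replicate 1 (861) lay below WT MII replicate 1 (941). The difference over all stages was 0.96 ± 0.23 (edgeR adjusted p = 0.0607), and it was called only without KO MII replicate 2. The E-type cyclins differed in level, *Ccne2* at 4841 and 6408 in WT GV and *Ccne1* at 123 and 80.4. Neither was called by edgeR with all libraries of the groups compared. In KO against GV, *Ccne2* was called lower at GVBD without KO GVBD replicate 2 (−1.06) and at MII without KO MII replicate 1 (−1.77). *Ccne2* had −0.56 ± 0.47 and *Ccne1* −0.95 ± 0.77 from GV to MII in WT (edgeR adjusted p = 0.412 and 0.39), and 0.23 ± 0.28 and 0.92 ± 0.39 in KO against WT over all stages (edgeR adjusted p = 0.712 and 0.224). For *Cdk4* and *Ccnd2* that genotype difference was −0.54 ± 0.50 and −0.20 ± 0.35 (edgeR adjusted p = 0.596 and 0.8), and for *Cdk2* it was 0.94 ± 0.38 (edgeR adjusted p = 0.2).

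**Figure D4:**
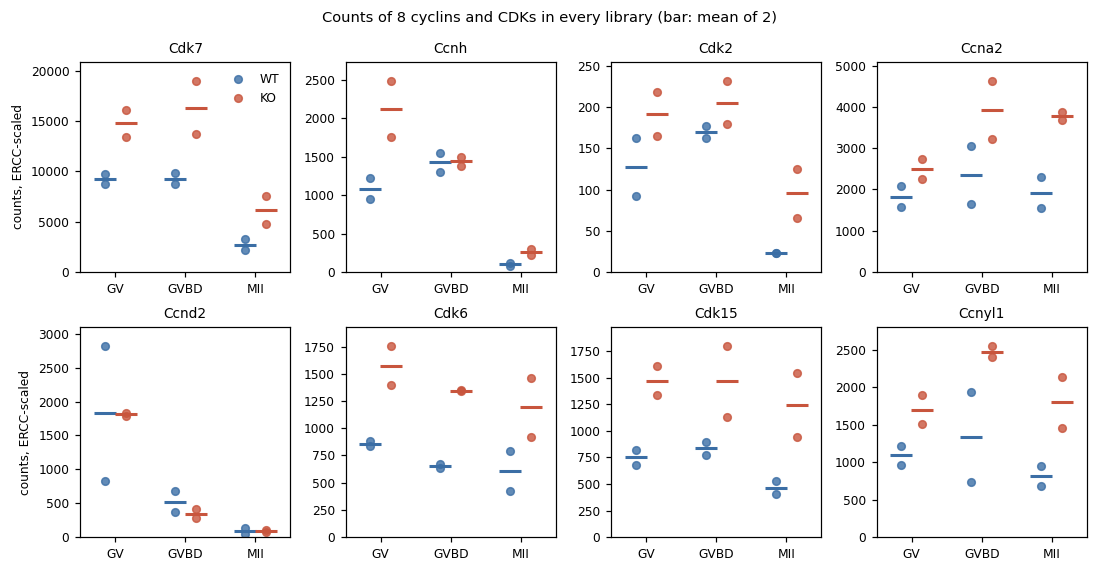
ERCC-scaled counts of 8 members in every library by stage, WT in blue and KO in red, with a bar at the mean of 2 libraries and axes starting at 0. *Cdk7*, *Cdk2*, *Ccna2*, *Cdk6*, *Cdk15* and *Ccnyl1* have both KO libraries above both WT libraries at every stage, while *Ccnd2* does not.

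Of the 9 transcription elongation and Mediator genes, edgeR called 3 lower from GV to MII in WT (30.9% of all genes) and none in KO (3.28%). All 3 belong to the Mediator kinase module, in which cyclin C pairs with CDK8 or its paralogue CDK19. *Ccnc* had WT values of 495 and 522, then 853 and 347, then 112 and 164, a GV to MII change of −1.88 ± 0.57 (edgeR adjusted p = 0.00488), with −1.86 ± 0.72 in KO (adjusted p = 0.152). DESeq2 did call it lower in KO (adjusted p = 0.0379), and the WT call by edgeR is lost without either WT GV library (adjusted p = 0.173 and 0.214). *Cdk8* was at 588 and 721 in WT GV and 317 and 198 in WT MII, a change of −1.35 ± 0.54 (edgeR adjusted p = 0.043), with −0.67 ± 0.66 in KO, and the WT call is lost without WT GV replicate 1, WT GV replicate 2 or WT MII replicate 2 (adjusted p = 0.344, 0.53 and 0.117). *Cdk19* was low, with WT values of 26.1 and 116, then 103 and 67.3, then 9.57 and 12.05, a change of −2.69 ± 1.0 (edgeR adjusted p = 0.0262), with −0.39 ± 1.19 in KO. Without WT GV replicate 2 the WT value of *Cdk19* was −1.26 (adjusted p = 0.777), and the call is also lost without either WT MII library (adjusted p = 0.205 and 0.239) and in DESeq2 (adjusted p = 0.0535). With TMM scaling none of *Ccnc*, *Cdk8* and *Cdk19* was called.

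The elongation kinases and their cyclins were not called by edgeR on the ERCC scale with all libraries of the groups compared. *Ccnk*, *Cdk12* and *Cdk9* were called lower in KO MII than in KO GV without KO MII replicate 1. With TMM scaling *Ccnt2* was higher in WT MII than in GV (1.08, edgeR adjusted p = 0.0231). *Cdk9*, the kinase of P-TEFb, was at 81.9 and 126 in WT GV and 61.4 and 28.0 in WT MII (−1.22 ± 0.79, edgeR adjusted p = 0.256). Its cyclins differed from it in value, *Ccnt1* with −0.72 ± 0.54 and *Ccnt2* with 0.21 ± 0.51 (edgeR adjusted p = 0.348 and 0.818). *Ccnk*, the partner of *Cdk12* and *Cdk13*, was at 4102 and 2110 in WT GV and 4657 and 2053 in WT MII (0.11 ± 0.47, adjusted p = 0.905). *Cdk12* had −0.45 ± 0.50 and *Cdk13* 0.12 ± 0.58 (edgeR adjusted p = 0.573 and 0.917). In KO against WT over all stages, *Ccnt1* had 0.85 ± 0.27, *Cdk8* 0.84 ± 0.30, *Ccnc* 0.73 ± 0.29, *Ccnt2* 0.68 ± 0.28 and *Cdk13* 0.60 ± 0.32 (edgeR adjusted p from 0.121 to 0.33). *Cdk12* had −0.56 ± 0.33, *Cdk9* 0.13 ± 0.40, *Ccnk* −0.10 ± 0.35 and *Cdk19* −0.02 ± 0.74 there (edgeR adjusted p from 0.386 to 0.992). None of these genotype values passed.

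Of the 5 genes *Ccnl1*, *Ccnl2*, *Cdk11b*, *Cdk10* and *Ccnq*, *Cdk10* alone was called in WT MII against GV (−2.27 ± 0.80, edgeR adjusted p = 0.0179). It was at 104 and 154 in WT GV and 28.7 and 24.6 in WT MII, so it fell to a low level, and the call is lost without any 1 of these 4 libraries (adjusted p from 0.0648 to 0.222). *Cdk11b* was not called, at 4643 and 3971 in WT GV and 6484 and 3546 in WT MII (0.22 ± 0.47, edgeR adjusted p = 0.796). *Ccnl1* was at 564 and 430, then 1006 and 367, then 796 and 418 in WT (0.29 ± 0.52 for MII, edgeR adjusted p = 0.753). Their KO against WT values over all stages were 0.11 ± 0.32 and 0.41 ± 0.29 (edgeR adjusted p = 0.89 and 0.476).

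The 8 membrane-linked and neuronal-type genes are *Cdk5*, the cyclin Y genes *Ccny* and *Ccnyl1*, and the related kinases *Cdk14* to *Cdk18*, of which CDK14 and CDK16 are known to bind cyclin Y. None was called from GV to MII in either genotype by edgeR with all libraries. WT values ran from −1.21 to −0.06 among the 7 tested. DESeq2 called *Cdk16* (−1.21, adjusted p = 0.0425) and *Cdk17* (−1.13, adjusted p = 0.0292) lower in WT. Both were also called by edgeR without WT MII replicate 1 (adjusted p = 0.0318 and 0.0196) and, in KO, without KO MII replicate 1 (adjusted p = 0.000964 and 0.000123). *Cdk15*, a little-studied member, was the only one edgeR called with all libraries, higher in KO over all stages by 1.07 ± 0.24 (edgeR adjusted p = 0.0459). It was at 823 and 675, then 892 and 777, then 529 and 402 in WT, and at 1335 and 1611, then 1797 and 1134, then 1547 and 945 in KO. On the ERCC scale all 6 KO libraries lay above all 6 WT libraries. With TMM scaling KO GV replicate 1 (770) lay below WT GVBD replicate 2 (816) and WT MII replicate 2 (798). How many of all genes separate in this way was not counted. The call is close to the threshold: it is lost without any 1 of 11 of the 12 libraries, KO MII replicate 2 being the exception (adjusted p from 0.0549 to 0.158). With TMM scaling its value was 0.80 (adjusted p = 0.0334), under the 2-fold minimum.

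*Ccnyl1* was at 962 and 1217, then 1928 and 733, then 953 and 680 in WT, and at 1890 and 1510, then 2545 and 2395, then 2140 and 1455 in KO. The KO pair lay above the WT pair at each stage, and the difference over all stages was 0.89 ± 0.26 (edgeR adjusted p = 0.102). Its annotated exons share 5.93% of their length with a transcript on the opposite strand, *2810408I11Rik*, which had more counts than *Ccnyl1* itself. *Ccny*, at 126 and 159 in WT GV, had −0.26 ± 0.45 in KO against WT over all stages (edgeR adjusted p = 0.799). The kinases *Cdk14* and *Cdk16* had 0.35 ± 0.27 and 0.74 ± 0.29 there (edgeR adjusted p = 0.518 and 0.189). From GV to MII in WT, *Cdk16* had −1.21 ± 0.55, *Cdk14* −0.49 ± 0.49, *Ccny* −0.65 ± 0.68, *Ccnyl1* −0.42 ± 0.50 and *Cdk6* −0.50 ± 0.51 (edgeR adjusted p from 0.078 to 0.601).

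Of the remaining 9 members, 8 were tested, and edgeR on the ERCC scale with all libraries of the groups compared called only *Ccno* and *Cdk20*. Both differed by more than 10-fold between the libraries of a single group, which no other member with counts in both libraries did. In KO MII *Cdk4* came close, at 9.78-fold, and *Ccnd1* reached 7.68-fold. A 10-fold difference was held by 0 or 1 member in each group. Among genes averaging 50 counts or more (12898 to 13227 in a group), 0.454% to 2.62% differed that much. Over the 40 or 41 members with counts in both libraries of a group, the median ratio between the libraries was 1.25 to 2.05.

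*Ccno* (chr13:112987802-112990777, plus strand) encodes cyclin O, known for centriole amplification in multiciliated cells. The WT values were 4175 and 2.82, then 7693 and 3409, then 562 and 338 through GV, GVBD and MII, and the KO values 7201 and 7549, then 24.7 and 12.1, then 10.01 and 1701. The low WT GV value rests on 2 raw counts, which is under the 3 counts taken as the floor. The KO GVBD libraries lay below both WT GVBD libraries, with a log2 fold change of −8.26 ± 0.77 (edgeR adjusted p = 1.48e-06), and below both KO GV libraries, with −8.69 ± 0.44 (edgeR adjusted p = 0.000188). With all 12 libraries in one model both calls are lost (edgeR adjusted p = 0.278 for the first). The first is also lost without WT GVBD replicate 1. In WT, *Ccno* was called lower at MII than at GV (−2.22 ± 0.52, edgeR adjusted p = 0.000149), but the value turns to 7.27 without WT GV replicate 1, the call is lost without either WT MII library (adjusted p = 0.527 and 0.697), and DESeq2 did not call it (adjusted p = 0.615). Over all stages the KO difference was −0.23 ± 1.85 (edgeR adjusted p = 0.96).

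Blood transcripts also switched between libraries. The sum of 6 blood markers had WT values of 698 and 2.21e+05, then 1.45e+05 and 8.87e+04, then 271 and 732, and KO values of 1.58e+05 and 2.39e+05, then 224 and 353, then 3.25e+04 and 30.8. In KO, both *Ccno* and this sum were high at GV and low at GVBD, whereas in WT GV and KO MII the library with high *Ccno* was the one with the low sum. The part of blood RNA in the *Ccno* values was not tested.

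*Cdk20* (chr13:64432314-64441773, plus strand), a kinase also known as cell cycle-related kinase, had WT values of 8466 and 6576, then 7251 and 114, then 381 and 27.0, and KO values of 229 and 403, then 23230 and 161, then 80.1 and 480. At GV both KO libraries lay below both WT libraries, with a log2 fold change of −4.56 ± 0.34 (edgeR adjusted p = 0.0274). This call is lost with TMM scaling (adjusted p = 0.0581), with all 12 libraries in one model (adjusted p = 1), and without KO GV replicate 1 (adjusted p = 0.203) or KO GV replicate 2 (adjusted p = 0.143). From GV to MII it fell by 5.21 ± 0.57 in WT (edgeR adjusted p = 9.26e-18), with −0.18 ± 0.91 in KO (adjusted p = 0.929). In DESeq2 the SE of this WT value was 1.49 (DESeq2 adjusted p = 0.00251). Over all stages the KO difference was −0.39 ± 1.46 (edgeR adjusted p = 0.911).

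**Figure D5:**
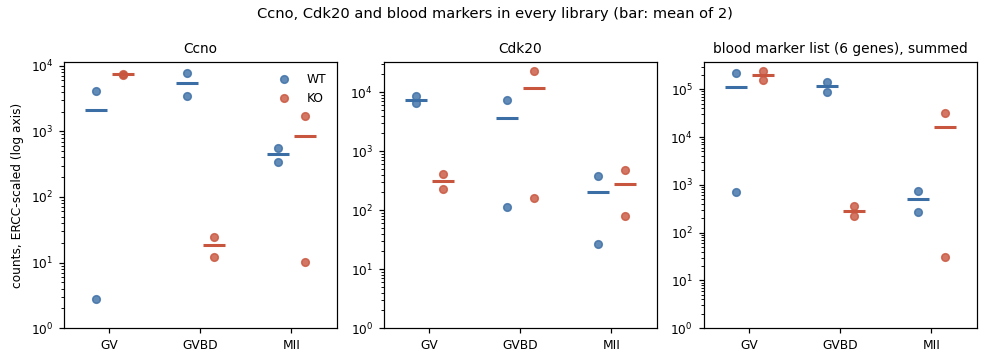
ERCC-scaled counts (log axis) of *Ccno*, *Cdk20* and the sum of 6 blood markers in every library by stage, WT in blue and KO in red, with a bar at the mean of 2 libraries. *Ccno* lies at 4175 and 2.82 in WT GV and at 24.7 and 12.1 in KO GVBD, and *Cdk20* at 23230 and 161 in KO GVBD.

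The other members of this group were not called by edgeR on the ERCC scale with all libraries of the groups compared. *Ccnf* was called lower in WT MII than in WT GV without WT MII replicate 1 (−1.20). *Ccnf*, *Ccng1*, *Ccni* and *Ccnj* were called lower in KO MII than in KO GV without KO MII replicate 1. *Ccndbp1* was at 23713 and 19726 in WT GV and 41599 and 25909 in WT MII, without overlap (0.64 ± 0.44, edgeR adjusted p = 0.296). *Ccnf*, a substrate adaptor of an SCF ubiquitin ligase, was at 1023 and 1013 in WT GV and 739 and 444 in WT MII (−0.78 ± 0.51, edgeR adjusted p = 0.257). *Ccng1* and *Ccng2*, known for induction by DNA damage or by growth arrest, had −1.18 ± 0.66 and −0.26 ± 0.54 there (edgeR adjusted p = 0.176 and 0.785). In KO against WT over all stages, *Ccng2* had 0.93 ± 0.27, *Ccng1* −0.59 ± 0.42 and *Ccnf* 0.03 ± 0.32 (edgeR adjusted p = 0.0959, 0.473 and 0.967). *Ccng2* was at 508 and 329, then 656 and 342, then 355 and 343 in WT, and at 878 and 809, then 895 and 586, then 854 and 751 in KO. Its pairs overlapped at GVBD and lay apart at GV and MII, and DESeq2 called it higher in KO at GV (1.01, adjusted p = 0.0357).

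Genes that regulate these kinases, from 4 lists of non-members, gave few calls. Over all genes tested, 2.54% were called in KO against WT at GVBD and 30.9% in WT MII against GV, where most of the calls below fall. Of 6 kinases and phosphatases that act on CDKs, *Cdc25a*, a phosphatase that activates CDKs, was higher in KO at GVBD by 2.26 ± 0.59 (edgeR adjusted p = 0.0445), and *Wee1*, a kinase that inhibits them, had −2.57 ± 0.70 in WT MII against GV (edgeR adjusted p = 0.0014). Of 16 assembly factors and inhibitors, 11 were tested in WT MII against GV and 1 was called, *Cdkn3*, at −5.21 ± 0.63 (edgeR adjusted p = 1.85e-14). Of 11 Rb and E2F genes 1 was called there, *E2f3*, at −7.84 ± 2.15 (edgeR adjusted p = 0.00155). Of 12 elongation and Mediator partners 3 fell there, *Hexim2*, *Mepce* and *Ell2*, with −2.93, −2.49 and −2.45. *Hexim2* and *Mepce* belong to the complex that holds P-TEFb inactive. EdgeR made no other call on the 4 lists in any comparison. Library values of these non-members are not given, and their calls were not followed across other settings or with a library left out.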

How the data were processed

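Poly(A) RNA of pooled mouse oocytes was sequenced, with 12 libraries in 6 groups (WT or KO at GV, GVBD or MII) assigned from the sample titles. The authors deposited 1 table of raw read counts per gene for all libraries, with 92 ERCC sequences. The submitters' processing notes name cutadapt 1.9, HISAT2 2.0.4, StringTie 1.3.4d and the mm10 genome. How strand was used in counting is not given in the sources used here, and the labels and the methods differ on library construction and on tool versions. The methods give 10 oocytes per tube and a figure legend 20.

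The ERCC sum set the library size in edgeR 4.0.16 (R 4.3.3), and filterByExpr removed low genes. The quasi-likelihood test was run within the groups compared, and p-values were adjusted over all genes tested. A call needs an adjusted p under 0.05 and an absolute log2 fold change of at least 1. The fit over all stages has terms for stage and genotype, and genotype differences in a change are interaction terms. Errors are SE. With 2 libraries per group the values of both are given for many of the members described, and not for the non-members.

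Each fit was repeated with TMM or median-of-ratios scaling, without ERCC sequences under 10 counts, without the filter or with a minimum of 10 counts per library, in DESeq2 1.42.0, in a single model of all groups, without the fold minimum, with the replicate number as a block, and without each library in turn. A crossed block and TMM values for libraries that do not overlap were added after the data were seen. Fits were tested on simulated data. Gene symbols matched 91.8% of gene IDs, and gene positions and lengths come from GENCODE M21 (GRCm38). The members and lists were chosen with earlier results of these data known. Text names members called between genotypes, the most changed in MII against GV, and members with a known place in oocyte or CDK biology.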

Additional observations from a re-analysis of the deposited data

Results flagged for a closer look

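The 3 results here stood out because 2 groups moved in opposite directions in every library. How many of all genes do so was not counted. Groups without overlap are common: KO lay above WT for 42.2% of genes at GV and 22.1% at MII, and below WT for 17.9% at GVBD. *Ccno* had both KO libraries above both WT libraries at GV and below them at GVBD, so that its KO against WT log2 fold change at GVBD minus that at GV was −10.1, and the interaction test did not pass (edgeR adjusted p = 0.386). *Cdk19* had both KO libraries below WT at GVBD and above WT at MII, a difference of 2.56 between the log2 fold changes, which was not tested and rests on levels of 9.57 to 103. With TMM scaling its MII libraries overlapped, at 12.6 and 112 in KO and 11.4 and 23.9 in WT. *Ccnh* lay higher at GVBD than at GV in both WT libraries and lower in both KO libraries, a difference of −0.96, which did not pass (edgeR adjusted p = 0.708).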

How the results depend on the processing

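With 2 libraries per group the spread of a single gene is poorly known and edgeR's estimate of it is shared across genes. Members under about 100 counts carry wide errors. Of 1240 recomputed values over 85 combinations of member and comparison, 1070 kept their direction and their side of the threshold, 92 lost a call, 12 gained one and 66 changed sign. The cause of each change was not tested. Relative to TMM, ERCC scaling moved the median gene by −0.92 in WT and −1.03 in KO for MII against GV, and by 0.27 to 0.35 for KO against WT.

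The count of members called in KO against WT at GV (1) was 0 with TMM, median-of-ratios scaling, all libraries in one model or the replicate block, and 2 with DESeq2. At GVBD (1) it was 0 with one model, and over all stages (1) 0 with TMM or median-of-ratios scaling. For WT GVBD against GV (0) it was 1 with no filter. For KO GVBD against GV (2) it was 1 with TMM, median-of-ratios scaling or the block, and 0 with one model. For MII against GV it was 5 with one model in WT (12), and in KO (2) 4 with a minimum of 10 counts, one model or the block. TMM called 8 in WT, 5 of them higher. Genotype differences in the change to GVBD (0) were 2 with no filter and 1 with a minimum of 10 counts or DESeq2, and in the change to MII (0) 1 with each of these. Leaving out 1 library gave 0 to 2 at GV, at GVBD and over all stages, 0 to 1 at MII, 0 to 1 for WT GVBD against GV, 1 to 4 in KO, 4 to 9 for WT MII against GV, 0 to 24 in KO, and 0 to 1 for the genotype difference to GVBD.

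Whether same-numbered libraries were paired is not stated. Their deviations correlated at −0.221 to 0.137 over 13273 genes, which cannot decide it, since a correlation over genes does not identify shared animals or collections. Crossed block numbers, tried after the data were seen, left 1 member called at GV and 0 at MII.

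Signs changed with TMM and then median-of-ratios scaling for *Cdk2* at GVBD (−0.044, −0.035) and over all stages for *Ccne2* (−0.052, −0.075), *Ccnf* (−0.27, −0.29), *Cdk11b* (−0.22, −0.25) and *Cdk9* (−0.11, −0.13). In WT MII against GV they changed for *Ccne2* (0.37, 0.42), *Ccnf* (0.12, 0.17), *Ccng2* (0.71, 0.76), *Ccnt1* (0.22, 0.26), *Ccny* (0.33, 0.38), *Ccnyl1* (0.53, 0.58), *Cdk12* (0.46, 0.51), *Cdk14* (0.46, 0.50) and *Cdk6* (0.39, 0.44). With the block they changed for *Cdk19* (0.046) and *Cdk20* (0.26) over all stages and *Ccno* (0.76) in WT MII against GV.

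Leaving out 1 library changed signs over all stages for *Ccnd2* (−0.39 to 0.026), *Ccnf* (−0.10 to 0.28), *Ccnk* (−0.28 to 0.12), *Ccno* (−4.36 to 0.62), *Ccny* (−0.64 to 0.12), *Cdk11b* (−0.094 to 0.34), *Cdk19* (−0.53 to 0.47), *Cdk20* (−2.87 to 0.35) and *Cdk9* (−0.14 to 0.32). In WT MII against GV it did so for *Ccna2* (−0.23 to 0.33), *Ccng2* (−0.54 to 0.087), *Ccnk* (−0.60 to 0.67), *Ccnl1* (−0.25 to 0.68), *Ccno* (−3.21 to 7.27), *Ccnt2* (−0.39 to 0.63), *Cdk11b* (−0.28 to 0.59) and *Cdk13* (−0.16 to 0.47).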
